A study of Drosophila melanogaster with 9 samples.

Results

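Starved all follicle cells (AFCs) were compared with fed AFCs by TRAP-seq in 6 of the 9 libraries of the series, 3 starved and 3 fed, which were taken from the sample labels as the libraries of the *GR1-GAL4* driver. In TRAP-seq, a GFP-tagged ribosomal protein, RpL10Ab-GFP, is expressed in chosen cells, tagged ribosomes are pulled down, and the bound mRNA, the translatome, is sequenced. Both groups had the genotype GR1-Gal4>UAS-Rpl10A-GFP as labelled, with tissue from approximately 100 flies pooled in each library. For starved AFC libraries, flies were kept on yeast-free apple juice agar for 16 to 20 h. Fed AFC libraries came from flies aged for 3 days at 25°C and then given fresh yeast paste for 2 days. The other 3 libraries are fed stretch follicle cells (SFCs) of the *PG150-GAL4* driver, from flies fed in the same manner, used here to estimate the spread between replicates and as a second level beside the fed AFCs. That driver is also active in centripetal cells.

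Follicle cells are the somatic epithelium that wraps the germline of each egg chamber. Late in oogenesis they build the eggshell, secreting first the proteins of the vitelline membrane and then those of the chorion, whose genes sit in clusters that are amplified in these cells. When dietary protein is withdrawn, egg chambers die at mid-oogenesis and the follicle cells take up the dying nurse cells.

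*GR1-GAL4* limits what these libraries can show. It is active from early oogenesis on in all follicle cells, SFCs included, and the paper's discussion names weak expression in the gut as a possible confounder. The input was whole thoraxes and abdomens rather than ovaries, and the labels call the cells main body follicle cells. Fewer cells of a type and less RNA per cell cannot be told apart in such bulk libraries. The sources call the replicates biological, without saying which flies were shared between them.

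Library totals were 36.5 to 42.3 M estimated reads in starved AFCs and 35.8 to 41.7 M in fed AFCs. Reads on rRNA pseudogenes made up 5.38% to 16.8% of starved and 1.19% to 18.1% of fed AFC libraries. Fed AFC replicate 1 stood apart, with at least 10 reads on 13253 genes against 9549 to 10872 in the other 5 AFC libraries. Its neuron list (12 genes) summed to 60.4 CPM (counts scaled to a common TMM library size), against 8.43, 31.7 and 10.3 CPM in starved AFC replicates 1 to 3 and 11.3 and 10.7 CPM in the other fed libraries, so counts over all genes and lists that rest on it are also given without it where they move. The 16 follicle cell markers were all detected and summed to 276, 287 and 218 CPM in starved AFCs and 352, 265 and 298 CPM in fed AFCs. Germline genes (23), in which the driver is not expected, summed to 2493 to 3257 CPM in starved AFCs and 2343 to 3404 CPM in fed AFCs, and muscle genes (25) to 1408 to 1637 CPM in starved AFCs and 1372 to 2021 CPM in fed AFCs. The gene that carries the tag, *RpL10Ab*, was read at 3364, 2474 and 2715 CPM in starved AFCs and 2535, 4216 and 3446 CPM in fed AFCs (adjusted p = 0.982, edgeR), with overlapping groups.

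To ask which genes starvation changed in the translatome, 10870 genes were tested with edgeR's quasi-likelihood test, adjusted by the Benjamini-Hochberg method. At an adjusted p below 0.05, 24 genes (0.221% of those tested) were lower in starved AFCs and 0 (0%) were higher. LFCs, the log2 fold changes of starved over fed AFCs, ran from -5.36 to -1.25 among the 24. They comprised 10 eggshell genes, 7 Jonah proteases and 7 others, and the 3 starved values lay below the 3 fed values in each of them, as in 5.91% of all genes. The opposite separation, starved above fed, was found in 6.17% of genes. Without adjustment, 317 genes (2.92%) were lower and 229 (2.11%) higher at p below 0.05, and 58.9% of all genes had an LFC below 0. Without fed AFC replicate 1, 449 genes (4.15%) were lower and 339 (3.14%) higher at an unadjusted p below 0.05, 47.1% had an LFC below 0, and the 3 starved values lay below both other fed values in 16.1% of genes and above them in 15.9%. Other tools differed in number, with 92 genes lower and 9 higher in DESeq2 and 30 lower and 3 higher in limma-voom, and DESeq2 called each of the 24.

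**Figure D1:**
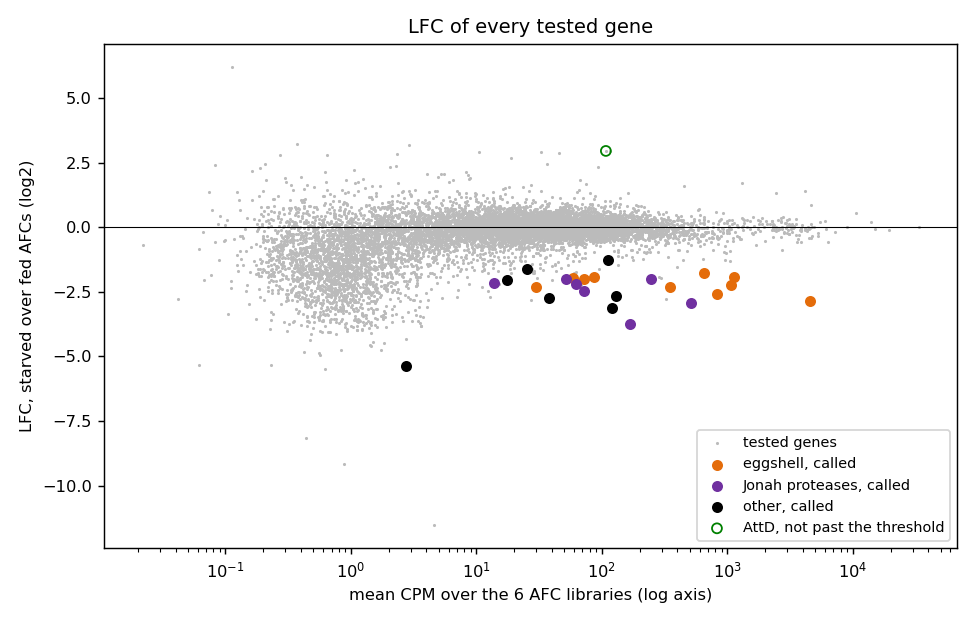
LFC of starved over fed AFCs (log2) against mean CPM over the 6 AFC libraries (log axis), 1 point for each of 10870 tested genes, with called genes (adjusted p below 0.05) in colour. The 24 called genes all lie below 0, and most of the eggshell genes among them lie at high levels, while *AttD* at an LFC of 2.95 was not past the threshold.

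How many of the 24 remained called depended on single libraries. With starved AFC replicate 1, 2 or 3 left out, 9, 8 and 7 of them were called. With fed AFC replicate 1, 2 or 3 left out, 14, 18 and 9 were called. Leaving out an SFC library, which enters the filter, the scaling and the estimate of spread but neither group mean, left 16, 13 and 21 of them for replicates 1, 2 and 3. The 6 genes called in all 9 of these fits were *Jon65Ai*, *CG32642*, *Jon25Bi*, *Jon99Fi*, *Jon25Biii* and *Jon25Bii*. *Cp36* and *Cp38* were called in none of them. Of the 10 eggshell genes, none remained without fed AFC replicate 3 or starved AFC replicate 2, and 1 or 2 remained without starved AFC replicate 3 or 1, whereas 5 to 7 of the 7 Jonah genes remained in each of the 9 fits.

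The major chorion proteins, which form most of the outer eggshell, had the lowest median LFC of the follicle cell lists. All 6 tested members were called, against 0.221% of all genes. The 6 LFCs ran from -2.86 to -1.77 with a median of -2.27, against a median of -0.09 over all genes. Their reads together came to 3855, 1402 and 2543 CPM in starved AFCs, against 9678, 18860 and 15060 CPM in fed AFCs. Starved AFC replicate 2 was the lowest and the groups were well separated.

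*Cp15* was the most abundant of the major chorion genes. It was read at 1780, 565 and 953 CPM in starved AFCs, against 4231, 11810 and 7960 CPM in fed AFCs (LFC -2.86, SE 0.49, adjusted p = 0.0397, edgeR). Per length, its mean was 2336 TPM in starved AFCs and 14850 TPM in fed AFCs. The highest starved value was still less than the lowest fed value, and the fed libraries spread widely, with replicate 1 the lowest.

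*Cp18* (LFC -2.56, SE 0.40, adjusted p = 0.0246, edgeR) was read at 402, 137 and 175 CPM in starved AFCs and 962, 1798 and 1456 CPM in fed AFCs. *Cp19* (LFC -2.22, SE 0.35, adjusted p = 0.0246) was read at 503, 209 and 421 CPM in starved AFCs and 1377, 1894 and 2013 CPM in fed AFCs. *Cp16* was the least abundant of this cluster, at 165, 55.6 and 129 CPM in starved AFCs and 374.5, 721 and 634.5 CPM in fed AFCs (LFC -2.31, adjusted p = 0.0379, edgeR). Starved replicate 2 was again the lowest in all of them, and the LFC of *Cp18* was -3.18 without starved replicate 1. These 4 genes lie side by side on the forward strand of chromosome 3L of BDGP6.54, in the order *Cp18* (from 8726791 to 8727613), *Cp15* (8728481 to 8729066), *Cp19* (8729865 to 8730604) and *Cp16* (8731944 to 8732599), with 867, 798 and 1339 bases between neighbours.

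The other amplified chorion cluster is on the X chromosome, where *Cp36* (8479319 to 8480523) and *Cp38* (8481837 to 8483311) are 1313 bases apart. *Cp36* was read at 596, 267.5 and 558 CPM in starved AFCs, against 1671, 1757 and 1919 CPM in fed AFCs (LFC -1.91, SE 0.32, adjusted p = 0.0379, edgeR). *Cp38* was read at 409.6, 168 and 307 CPM in starved AFCs, against 1063, 871 and 1082 CPM in fed AFCs (LFC -1.77, SE 0.31, adjusted p = 0.0452). The fed libraries of both genes lay close together, and starved replicate 2 was the lowest. Both calls were lost in each fit with a library left out, where the highest adjusted p over all alternatives was 0.156 for *Cp36* and 0.199 for *Cp38*.

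The chromosome 3L genes are expressed later in eggshell formation than those on X, so the ratio of their summed CPM was compared. It was 2.83, 2.22 and 1.94 in starved AFCs and 2.54, 6.17 and 4.02 in fed AFCs. The groups overlapped, with fed replicate 1 between the starved values. The difference was not past the threshold in an exact two-sided permutation test (p = 0.2, n = 3 against 3), which cannot give a p below 0.1 in this design.

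**Figure D2:**
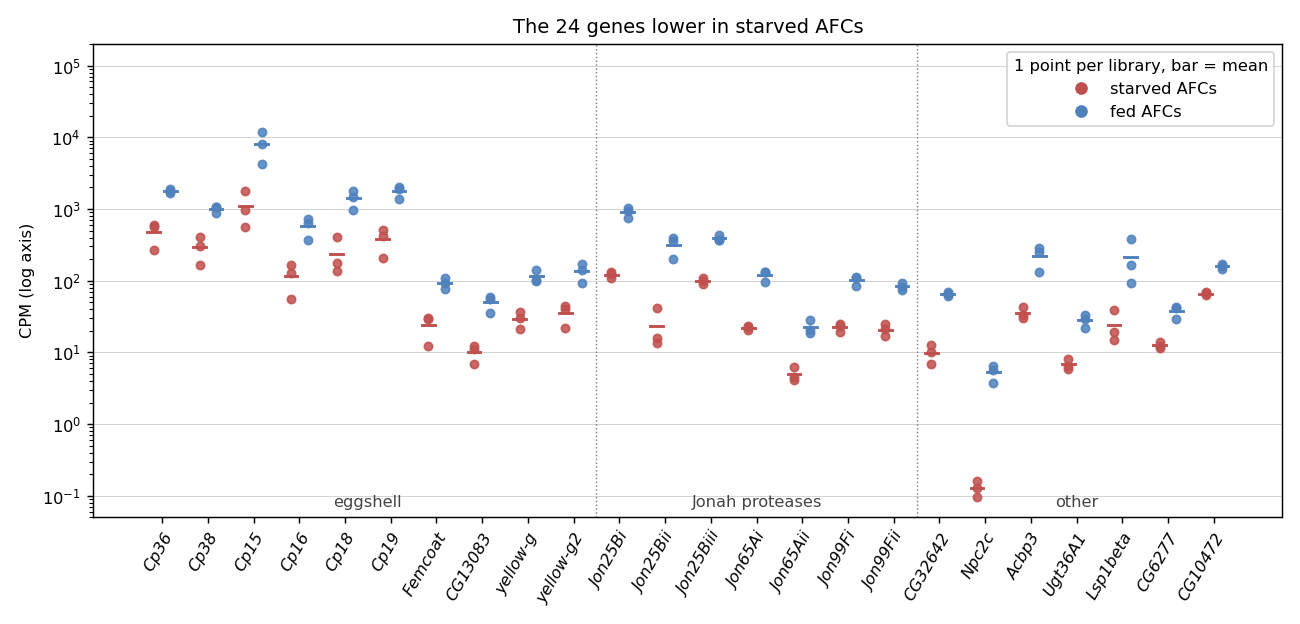
CPM (log axis) of the 24 called genes in each of the 3 starved and 3 fed AFC libraries, 1 point per library with the group mean as a bar. In each gene the starved points lie below the fed points, with the LFC nearest to 0 in *CG10472*, at 62.9 to 69.3 CPM in starved AFCs and 144 to 171 CPM in fed AFCs.

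Minor chorion and endochorion genes also had lower values in starved AFCs, though few passed the test. Of 17 tested members, 2 were called (against 0.221% of all genes) and 13 had unadjusted p below 0.05 (against 2.92%). All 17 had an LFC below 0, and the median was -1.47. With fed AFC replicate 1 left out, 11 had unadjusted p below 0.05 (against 4.15% of all genes) and the median was -1.42. *Femcoat*, which encodes an eggshell protein, was read at 30.04, 12.2 and 29.4 CPM in starved AFCs, against 93.2, 77.5 and 109.9 CPM in fed AFCs (LFC -1.97, SE 0.33, adjusted p = 0.0379, edgeR). *CG13083* was read at 11.2, 6.89 and 12.2 CPM in starved AFCs, against 54.9, 35.4 and 58.6 CPM in fed AFCs (LFC -2.30, SE 0.36, adjusted p = 0.0246). In both genes starved replicate 2 was the lowest library.

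Members that missed the threshold included *Cp7Fa* (LFC -1.78, adjusted p = 0.0673), a chorion gene of the X cluster, and *Fcp3C* (LFC -1.61, adjusted p = 0.0899), whose groups did not overlap. The endochorion gene *dec*, known as dec-1, was read at 140.3, 93.5 and 149 CPM in starved AFCs and 304, 240.2 and 357 CPM in fed AFCs (LFC -1.24, adjusted p = 0.169, edgeR). The starved values of *dec* lay below all its fed values. The library kit does not mark strand, so reads of *Cp36* and *Cp38* cannot be told from those of *CG33223* on the other strand, nor those of *yellow-g* from *CG32302*, *CG13083* from *CG10194*, *Ugt36A1* from *CG15418*, *CG6277* from *RYa-R* or *CG10472* from *CG6592* where they overlap.

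Vitelline membrane genes, which are expressed before the chorion genes, had a median LFC of -1.16 over 8 tested members. None was called, while 6 had unadjusted p below 0.05 (against 2.92% of all genes) and the groups were separate in 3 (against 5.91%). Without fed AFC replicate 1, 3 had unadjusted p below 0.05 (against 4.15% of all genes) and the median was -0.93. *Vm32E* was read at 96.4, 76.6 and 190.0 CPM in starved AFCs and 457, 326 and 629 CPM in fed AFCs (LFC -1.96, SE 0.42, adjusted p = 0.141, edgeR). It overlaps *Ca-beta* on the same strand. *Vml*, which encodes a large vitelline membrane protein, was read at 41.0, 26 and 46.6 CPM in starved AFCs and 89.5, 64.5 and 128 CPM in fed AFCs (LFC -1.31, adjusted p = 0.144).

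Fed AFC replicate 2 set much of the spread in this group. The abundant *Vm26Aa* was read at 787, 526 and 654 CPM in starved AFCs and at 1547, 712 and 1626 CPM in fed AFCs (LFC -0.98, adjusted p = 0.896, edgeR), so that fed replicate 2 lay inside the starved range. Over the 41 tested genes of the 4 eggshell lists, fed AFC replicate 2 was the lowest fed library in 28, whereas it was the highest for *Cp15*, *Cp16* and *Cp18*. Among starved libraries, replicate 2 was the lowest in 32 of these 41 genes, and in 3635 of the 10870 genes tested.

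Of the genes for eggshell cross-linking and oxidation, 2 of 10 tested members were called, against 0.221% of all genes. The list's median LFC was -0.92, or 0.24 without fed AFC replicate 1. *yellow-g* and *yellow-g2*, which are members of the Yellow family needed for a rigid eggshell and lie 3780 bases apart on chromosome 3L, were both lower. *yellow-g* was read at 29.7, 20.9 and 36.1 CPM in starved AFCs, against 100.3, 102 and 142.5 CPM in fed AFCs (LFC -1.99, SE 0.29, adjusted p = 0.0181, edgeR). *yellow-g2* was read at 40.8, 22.1 and 44.6 CPM in starved AFCs, against 143, 92.6 and 172 CPM in fed AFCs (LFC -1.92, SE 0.34, adjusted p = 0.0435). Members not called included the peroxidase gene *Pxt*, with 282, 209 and 183 CPM in starved AFCs and 118, 149.8 and 178 CPM in fed AFCs (LFC 0.60, adjusted p = 0.968), where starved values were the higher ones.

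Yolk protein genes, which follicle cells and the fat body both express, did not follow the eggshell. None of the 4 tested members of the list, *Yp1* to *Yp3* and the yolk receptor gene *yl*, was called. *Yp1* was read at 10630, 10370 and 5718 CPM in starved AFCs and 10910, 5940 and 9996 CPM in fed AFCs (LFC -0.01, adjusted p = 0.998, edgeR), with overlapping groups. The early and main body follicle cell markers had a median LFC of -0.56 over 16 tested genes, or 0.0 without fed AFC replicate 1. None of these markers was called. Among them *tj*, a transcription factor of follicle cells, was read at 13.7, 11.2 and 15.1 CPM in starved AFCs and 29.6, 17.1 and 48.2 CPM in fed AFCs (LFC -1.25, adjusted p = 0.706).

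**Figure D3:**
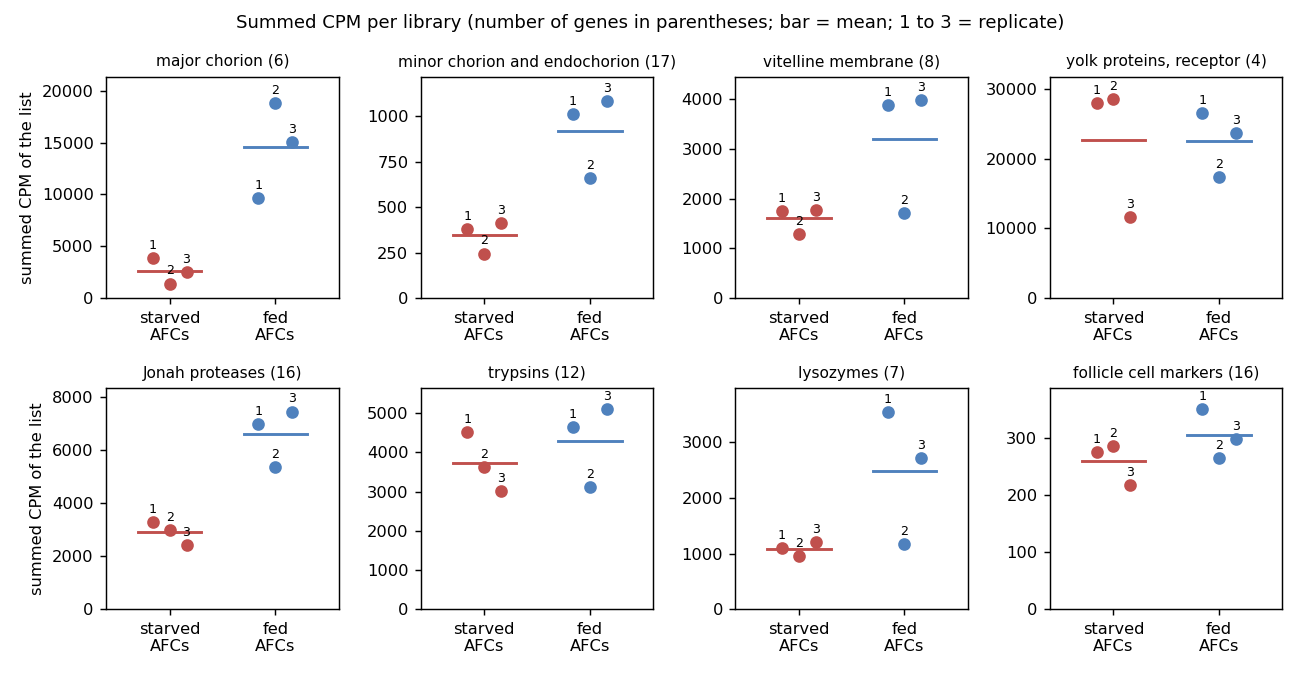
Summed CPM of 8 gene lists in each AFC library (numbers 1 to 3 give the replicate, bars the group means, axes start at 0). The starved libraries lie below the fed ones in the major chorion, minor chorion and Jonah lists, and the groups overlap in the yolk, trypsin and follicle cell marker lists.

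The Jonah proteases are serine proteases known as digestive enzymes of the midgut, and they held 5 of the 6 smallest p-values of the comparison. All 16 genes of the family were tested and 7 were called, against 0.221% of all genes. The members not called had LFCs between -2.34 and -0.45, and the median over the family was -1.99. Starved values lay below all fed values in 14 of 16, against 5.91% of all genes. Unadjusted p was below 0.05 in 11 of 16, against 2.92% of all genes, and in 11 without fed AFC replicate 1, against 4.15%. The driver may be weakly active in the gut and the input held whole abdomens, and whether the reads came from follicle cells was not tested. Midgut genes other than proteases (21 tested, median LFC -1.42) moved the same way, and 3 were called lower, against 0.221% of all genes. The midgut genes summed to 466, 483 and 595 CPM in starved AFCs and 1109, 805 and 913 CPM in fed AFCs. Their part in the result was not tested. Near-identical members can share reads, so values of single Jonah genes are less certain than their sum.

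The 3 *Jon25B* genes lie within one stretch of the reverse strand of chromosome 2L, from 4949941 to 4955144. *Jon25Bi* was read at 130.3, 109 and 123 CPM in starved AFCs, against 1041, 748 and 950.0 CPM in fed AFCs, which is 7.56-fold lower (LFC -2.92, SE 0.28, adjusted p = 0.000645, edgeR). *Jon25Bii* was read at 15.9, 13.4 and 41.2 CPM in starved AFCs, against 391, 199 and 352 CPM in fed AFCs, which is 13.4-fold lower (LFC -3.74, SE 0.44, adjusted p = 0.00324). *Jon25Biii* was read at 109, 89.8 and 97.8 CPM in starved AFCs, against 375, 433 and 369.5 CPM in fed AFCs (LFC -1.99, SE 0.22, adjusted p = 0.00179). The starved libraries lay close together in *Jon25Bi* and *Jon25Biii*, and replicate 3 stood above the others in *Jon25Bii*, whose LFC was -4.39 without it. Summed, the 3 genes came to 243 ± 27.1 CPM in starved AFCs and 1620 ± 218 CPM in fed AFCs (SD, n = 3 each).

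*Jon65Ai*, on chromosome 3L from 6053493 to 6054443, had the smallest p of all genes. It was read at 23.0, 20.4 and 22.9 CPM in starved AFCs, against 96.8, 133 and 132 CPM in fed AFCs (LFC -2.45, SE 0.23, adjusted p = 0.000645, edgeR). Its neighbour *Jon65Aii*, 277 bases away on the other strand, was read at 4.60, 4.07 and 6.322 CPM in starved AFCs, against 28.4, 20.3 and 18.8 CPM in fed AFCs (LFC -2.17, SE 0.34, adjusted p = 0.0246). *CG10472*, 6928 bases from *Jon65Ai*, is a predicted serine protease and had the smallest change of the 24, at 69.3, 66.5 and 62.9 CPM in starved AFCs and 171, 159 and 144 CPM in fed AFCs (LFC -1.25, SE 0.22, adjusted p = 0.0435). Among the called genes of this stretch the size of the fall thus ran from 2.39-fold to 5.46-fold.

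On chromosome 3R, *Jon99Fi* and *Jon99Fii* are 1034 bases apart. *Jon99Fi* was read at 25.0, 19.1 and 23.1 CPM in starved AFCs, against 85.1, 108 and 113 CPM in fed AFCs (LFC -2.19, SE 0.22, adjusted p = 0.000645, edgeR). *Jon99Fii* was read at 24.8, 16.8 and 21.0 CPM in starved AFCs, against 82.1, 74.7 and 92.9 CPM in fed AFCs (LFC -1.997, SE 0.25, adjusted p = 0.00430), and its call was lost without starved replicate 3. Of the 24 called genes, 16 lay within 20000 bases of another.

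Several abundant Jonah genes had LFCs nearer to 0 and were not called. *Jon99Cii* was read at 828, 827.5 and 503.8 CPM in starved AFCs and 1263, 1266 and 1577 CPM in fed AFCs (LFC -0.93, adjusted p = 0.561, edgeR). *Jon65Aiv* was read at 881, 684 and 575 CPM in starved AFCs and 1135, 623 and 1174 CPM in fed AFCs (LFC -0.45, adjusted p = 0.982), with overlapping groups. The 9 members not called summed to 2965, 2714 and 2098 CPM in starved AFCs and 4888, 3627 and 5414 CPM in fed AFCs.

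Other digestive enzymes varied more between libraries. None of the 12 trypsins was called (median LFC -0.42), and they summed to 4519, 3624 and 3024 CPM in starved AFCs and 4644, 3125 and 5110 CPM in fed AFCs. *thetaTry*, a trypsin of low abundance, was the nearest to the threshold, at 9.91, 9.45 and 10.6 CPM in starved AFCs and 34.01, 21.2 and 33.4 CPM in fed AFCs (LFC -1.57, adjusted p = 0.0513, edgeR). The lysozymes (6 tested) had a median LFC of -1.13, or -0.66 without fed AFC replicate 1. They summed to 1106, 964 and 1206 CPM in starved AFCs and 3547, 1183 and 2712 CPM in fed AFCs, where fed replicate 2 lay in the starved range. The glycosidases (15 tested, median LFC -0.30) had overlapping sums, and none was called in either list.

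Of 17 tested digestive lipases, 1 was called, against 0.221% of all genes. The median LFC of the lipases was -1.34, or -0.41 over the 16 members fitted without fed AFC replicate 1. The predicted lipase *CG6277*, on chromosome 3R from 27022071 to 27023217, was read at 12.2, 11.5 and 13.8 CPM in starved AFCs, against 28.9, 42.0 and 43.3 CPM in fed AFCs (LFC -1.61, SE 0.27, adjusted p = 0.0379, edgeR). Its neighbour *CG17192* (27017180 to 27018287) was not called, at 11.3, 8.35 and 6.25 CPM in starved AFCs and 37.9, 13.3 and 35.97 CPM in fed AFCs (LFC -1.75, adjusted p = 0.407). The starved values of *CG6277* spanned a narrow range, and those of fed AFCs did not reach it.

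The other 5 called genes included 3 with roles in lipid handling, detoxification or sterol binding. *Npc2c*, of the Niemann-Pick type C2 family of sterol-binding proteins, had the lowest LFC of the 24 at -5.36 (SE 0.78, adjusted p = 0.0181, edgeR). It rested on 6, 4 and 5 reads in starved AFCs, or 0.159, 0.0957 and 0.128 CPM, against 279, 255 and 118 reads in fed AFCs, or 5.33 ± 1.41 CPM (SD, n = 3), so the fold is imprecise while the groups are far apart. None of the other 9 tested members of that family list was called, and the list's median LFC was 0.13.

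*Acbp3*, which encodes an acyl-CoA binding protein, was read at 29.8, 33.2 and 43.6 CPM in starved AFCs, against 255, 133.5 and 283 CPM in fed AFCs (LFC -2.66, SE 0.40, adjusted p = 0.0246, edgeR). *Ugt36A1*, a UDP-glycosyltransferase gene, was read at 6.53, 5.84 and 8.16 CPM in starved AFCs, against 28.9, 22.2 and 32.9 CPM in fed AFCs (LFC -2.03, SE 0.32, adjusted p = 0.0246). *CG32642*, on the X chromosome from 12959220 to 12960790, was read at 12.6, 6.96 and 10.1 CPM in starved AFCs, against 60.9, 65.5 and 69.3 CPM in fed AFCs (LFC -2.72, SE 0.26, adjusted p = 0.000645). It was the only gene outside the Jonah family that was called whichever library was left out.

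*Lsp1beta*, a storage protein gene of the fat body, was read at 15.1, 39.1 and 19.1 CPM in starved AFCs, against 385, 93.6 and 167 CPM in fed AFCs (LFC -3.14, SE 0.52, adjusted p = 0.0338, edgeR). The fed libraries spread widely, with replicate 1 the highest, and without it the LFC was -2.42 and the call was lost (adjusted p = 0.0618). The call was also lost without starved AFC replicate 1 or 3, and without fed SFC replicate 1 or 2. It was lost too with only the 6 AFC libraries, with a filter of 50 counts in 3 libraries and with the replicate number as a block. The related gene *Lsp2* was not called, at 59.1, 243 and 52.2 CPM in starved AFCs and 776, 199 and 368 CPM in fed AFCs (adjusted p = 0.664). The 22 genes of the storage and fat body list had a median LFC of -0.02, and 1 was called, against 0.221% of all genes. The list's median was 0.41 without fed AFC replicate 1.

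**Figure D4:**
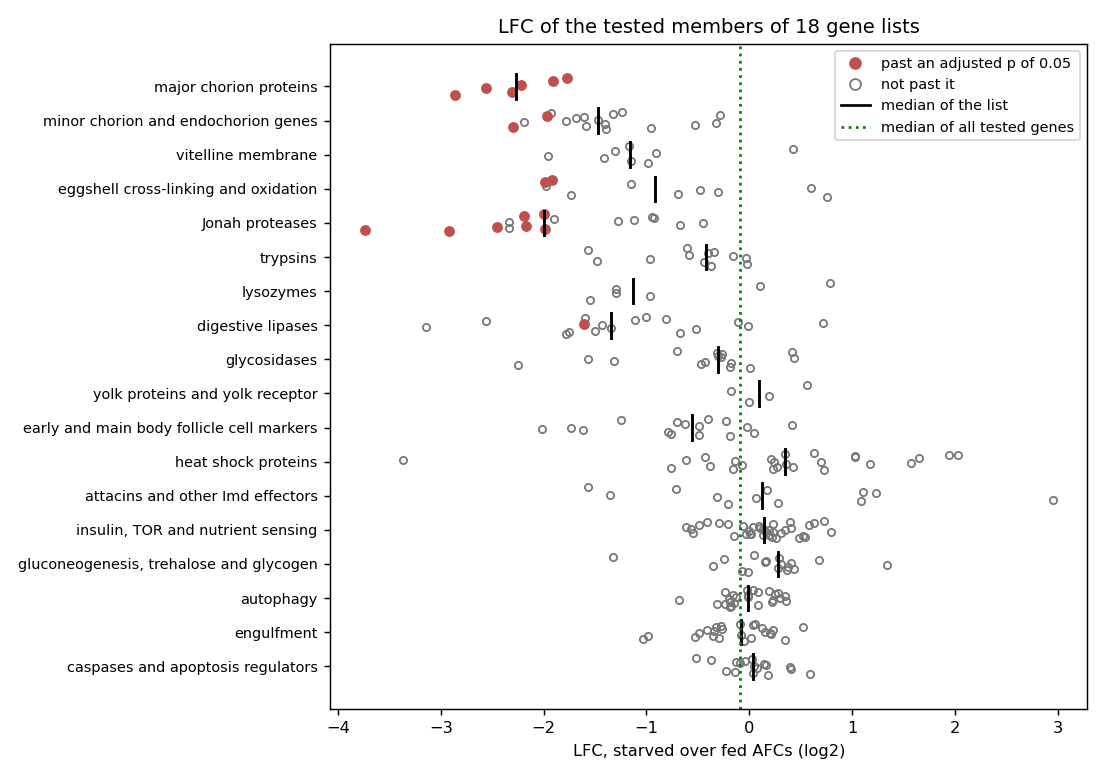
LFC (log2) of the tested members of 18 gene lists, 1 point per gene, filled where past an adjusted p of 0.05, with the median of each list as a black bar and that of all genes (-0.09) as a dotted line. Called genes are found in the major chorion, minor chorion, cross-linking, Jonah and lipase lists, and the lists for autophagy, engulfment and caspases have medians between -0.08 and 0.03.

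No gene was called higher in starved AFCs, so the genes nearest to it are given as values. The antimicrobial peptide gene *AttD* had the smallest adjusted p of these, at 80.2, 188 and 304 CPM in starved AFCs and 12.8, 21.1 and 40.0 CPM in fed AFCs (LFC 2.95, SE 0.54, adjusted p = 0.0527, edgeR). The lowest starved library was above the highest fed one. *AttD* passed the threshold in 8 of 20 alternatives, among them DESeq2 (5.96e-07), limma-voom (0.0131) and the edgeR fits without starved AFC replicate 1 (0.0151) or fed AFC replicate 3 (0.0458), and its adjusted p was highest without fed AFC replicate 1 (0.202).

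In fed SFCs *AttD* was at 14.1, 37.9 and 21.8 CPM, and starved AFCs were above fed SFCs (LFC 2.96, adjusted p = 0.0147, edgeR, where 2.22% of genes were called). The other members of the list of attacins and Imd effectors were not called. The median over its 12 tested members was 0.12, or -0.11 without fed AFC replicate 1. Starved values lay above all fed values in 2 of the 12, *AttD* included, against 6.17% of all genes. Of the 17 tested genes of the Imd pathway, which controls attacins, none was called (median LFC 0.21). In 2 of the 17, starved values lay above all fed values, beside the same share of all genes.

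*Pepck1* and *FASN2* were among the 12 genes with the smallest p of those whose starved values lay above all fed values. *Pepck1*, a gluconeogenic enzyme gene, was read at 192, 252 and 249.7 CPM in starved AFCs and 138, 47.5 and 87.7 CPM in fed AFCs (LFC 1.34, SE 0.33, adjusted p = 0.254, edgeR). *FASN2*, a fatty acid synthase gene, was read at 143, 112 and 87.6 CPM in starved AFCs and 60.4, 23.8 and 51.9 CPM in fed AFCs (LFC 1.33, SE 0.31, adjusted p = 0.193). Their groups did not overlap and neither was called. The gluconeogenesis, trehalose and glycogen list had a median LFC of 0.28 over 17 genes and the insulin and TOR list 0.15 over 36 genes, with none called in either.

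*CG14302* was read at 99.6, 199 and 316 CPM in starved AFCs and 10.5, 6.26 and 63.2 CPM in fed AFCs (LFC 2.94, SE 0.74, adjusted p = 0.259, edgeR). Without fed AFC replicate 3 its LFC was 4.64 and it passed the threshold (adjusted p = 0.00495), as it did in limma-voom and with the replicate block. In *AttD* and *CG14302* the 3 starved libraries had the same order, with replicate 3 the highest, and fed replicate 3 was the highest fed library. *CG14302* was at only 0.448, 1.083 and 0.946 CPM in fed SFCs, and starved AFCs were above fed SFCs (LFC 8.003, adjusted p = 0.00138). The remaining genes of this set were *CG1648*, *CG34330*, *CG4716*, the flight muscle actin *Act88F*, the ubiquitin ligase *mib2*, the ornithine decarboxylase *Odc1* and the histone chaperone *Nasp*, with LFCs from 0.72 to 1.66 and adjusted p from 0.147 to 0.372.

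**Figure D5:**
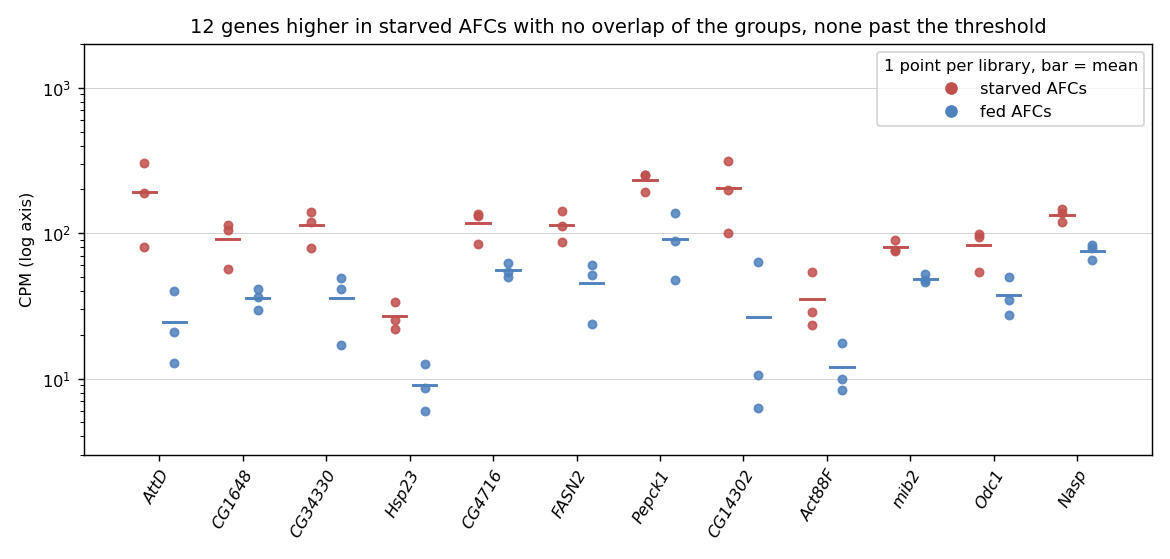
CPM (log axis) of the 12 genes with the smallest p among those whose 3 starved values lie above all 3 fed values, 1 point per library with the group mean as a bar. None was past an adjusted p of 0.05, with *AttD* the nearest at 0.0527, and *CG14302* has the widest spread among fed libraries.

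Several heat shock genes had higher values in starved AFCs, without a call. Of 25 tested members, 7 had unadjusted p below 0.05 on the higher side (against 2.11% of all genes), 7 had groups that did not overlap (against 6.17%), and the median LFC was 0.34. In the fit without fed AFC replicate 1, 8 had unadjusted p below 0.05 (against 3.14% of all genes) and the median was 0.65. The small heat shock gene *Hsp23* was read at 22.0, 33.7 and 25.4 CPM in starved AFCs and 5.99, 12.7 and 8.61 CPM in fed AFCs (LFC 1.57, SE 0.35, adjusted p = 0.147, edgeR). *Hsp68* was read at 26.3, 47.4 and 49.6 CPM in starved AFCs and 11.01, 19.3 and 8.93 CPM in fed AFCs (LFC 1.65, SE 0.47, adjusted p = 0.432). The abundant constitutive gene *Hsc70-4* overlapped between groups, at 3787, 3430 and 2624 CPM in starved AFCs and 2355, 2983 and 2839 CPM in fed AFCs.

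The lists for nurse cell death and clearance held no called gene, beside 0.221% of all genes called, so the count says little about them. None of 24 engulfment genes, 25 autophagy genes, 17 caspases and apoptosis regulators or 15 JNK pathway genes passed the threshold, and their median LFCs were -0.08, -0.02, 0.03 and 0.04. The engulfment receptor gene *drpr* was read at 26.9, 40.0 and 32.5 CPM in starved AFCs and 26.3, 20.0 and 22.7 CPM in fed AFCs (LFC 0.53, SE 0.25, adjusted p = 0.982, edgeR). *Rac1*, a GTPase that acts in engulfment, was read at 48.0, 51.3 and 48.0 CPM in starved AFCs and 63.6, 65.7 and 77.6 CPM in fed AFCs (LFC -0.49, SE 0.23, adjusted p = 0.982). Starved values were just above all fed values in *drpr* and below them in *Rac1*. The effector caspase gene *Dcp-1* had overlapping groups (LFC 0.41, SE 0.37, adjusted p = 0.982).

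Of 21 tested genes listed here as named by the study for starvation, 4 were called, against 0.221% of all genes. These were *Jon25Bii*, *Npc2c*, *Lsp1beta* and *CG6277*, and all 4 were lower in starved AFCs. The list leaves out the major chorion genes, which the study also reports as diminished and which were all called lower here. The study chose the listed genes on the same samples, so the count is not independent evidence. The paper's summary of its in vivo screen marks these 4 as upregulated in the starved AFC translatome, opposite to the direction here. The same mark is given to *CG17192*, *CG17633*, *CG6508* and *CG31926*, and to *CG10163* with NS added. The difference in direction was not tested. Values were also lower in starved AFCs, without a call, for *CG10163* (LFC -1.78), *CG17192* (LFC -1.75), *CG17633* (LFC -1.14) and *CG6508* (LFC -2.80). The predicted protease gene *CG31926* was of low abundance, at 1.51, 0.383 and 0.870 CPM in starved AFCs and 2.80, 2.69 and 4.29 CPM in fed AFCs (LFC -1.82, SE 0.87, adjusted p = 0.982, edgeR). Other listed genes, none of them called, had the direction that the paper reports for starved AFCs. Upregulated ones included *AttD* (LFC 2.95), *Hsp23* (LFC 1.57), *Act88F* (LFC 1.57), *Pepck1* (LFC 1.34) and *FASN2* (LFC 1.33). Diminished ones included *Vm32E* (LFC -1.96), *Vml* (LFC -1.31) and *PH4alphaPV* (LFC -1.66).

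Fed SFCs gave a second level for the genes lower in starved AFCs. The fed AFC libraries serve as reference for both, so values are set side by side only. *Cp15* was read at 1142, 1125 and 788 CPM in fed SFCs, which is an LFC of -2.97 against fed AFCs (adjusted p = 0.00836, edgeR, where 2.99% of genes were called), beside -2.86 for starved AFCs. *Jon25Bi* was at 319.9, 510.2 and 307 CPM in fed SFCs, an LFC of -1.27 (adjusted p = 0.0258), beside -2.92 for starved AFCs. The direct edgeR test of starved AFCs against fed SFCs called 2.22% of all genes. It was past the threshold for *Jon25Bi* (LFC -1.65, adjusted p = 0.00910) and *Npc2c* (LFC -5.01, adjusted p = 0.00609), and not for *Cp15* (LFC 0.11, adjusted p = 0.936). The Jonah genes were not alike, as *Jon99Fi* (LFC -0.21, adjusted p = 0.652) and *Jon65Ai* (LFC -0.79, adjusted p = 0.0872) were not past it. All these genes were picked for low starved values, and driver, cells and diet differ together in this contrast.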

How the data were processed

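Ribosome-bound mRNA was sequenced by the authors as single-end reads from an unstranded TruSeq v2 library, and quantified with Salmon 1.1.0 against BDGP6.32, with bcl2fastq 2.2 and cutadapt also given in the submitters' processing notes. The deposited files hold estimated counts, TPM and effective lengths for each transcript, as the authors' Salmon runs gave them, with replicates kept apart.

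Estimated counts were summed to 14077 genes with the BDGP6.54 annotation of Ensembl release 115 (30179 of 30215 transcripts matched) and rounded to whole numbers for DESeq2 and edgeR. edgeR 4.0.16 in R 4.3.3 was fitted to all 9 libraries with 1 mean per group, TMM scaling and a minimum count of 10 in filterByExpr, which left 10870 genes. The contrast was starved AFC over fed AFC, with Benjamini-Hochberg adjustment and a threshold of 0.05. SE is the absolute LFC divided by the square root of F. CPM uses TMM library sizes, and deposited TPM, which is not TMM-scaled, was used only for levels per length. The fit was tested on simulated data.

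DESeq2 1.42.0, limma 3.58.1, other scalings, filters and length offsets, a replicate block and the omission of each library were run as alternatives. The ratio of chorion sums was tested with scipy 1.17.1. The text names every gene past the threshold, the 12 with the smallest p among those higher in starved AFCs with separate groups, the tagged gene, list members and genes the study names. Members and lists were chosen with earlier results of these data known. Of 778 list entries, 13 had no match. P-values measure the spread between these libraries.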

Additional observations from a re-analysis of the deposited data

How the results depend on the processing

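No LFC of the 49 named genes changed sign in any of 980 values under the alternatives, of which 810 kept their side of the threshold, 125 lost a call and 45 gained one. The number of genes lower in starved AFCs (24) became 92 in DESeq2, 88 in DESeq2 with length offsets, 15 with only the 6 AFC libraries and 7 at an adjusted p of 0.01, and ranged from 8 to 23 with 1 library left out. The number higher (0) became 9 in both DESeq2 fits, 3 in limma-voom, 2 with no filter on low counts and 1 with the 10 highest genes left out, and ranged from 0 to 2 with 1 library left out. Causes were not tested.

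With the replicate number as a block (replicate block), 25 genes were lower, 16 of them among the 24, and 2 were higher. Whether the numbers pair the samples could not be settled from these libraries. Deviations from the group means correlated at -0.212, -0.53 and 0.385 between starved and fed AFC libraries of the same number. Not every library correlated best with its own number, and with 3 libraries a group such deviations depend on each other.

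The median LFC of all genes was -0.09, and 0.035 without fed AFC replicate 1. With 3 libraries a group and a common dispersion of 0.362, changes of modest size in variable genes could be missed, and the absence of a call does not show that a gene did not differ.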

Other observations

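Replicative helicase genes with an *Mcm* symbol had higher values in starved AFCs without a call. They were taken by symbol, so a subunit under another name was not counted. The 5 *Mcm* genes of the chorion amplification and endocycle list summed to 751, 550.0 and 714 CPM in starved AFCs and 336, 446 and 475 CPM in fed AFCs. All 5 had LFCs above 0 (0.47 to 0.86) and the groups were separate in 3 of them, against 6.17% of all genes. They were picked, with values seen, from a list of 22 tested genes whose median LFC was 0.14, with 8 members below 0 and 3 separate and higher. *Mcm5* was read at 166, 130.5 and 185 CPM in starved AFCs and 84.7, 80.7 and 99.8 CPM in fed AFCs (LFC 0.86, SE 0.24, adjusted p = 0.404, edgeR). The proteasome base genes *Rpn1* (LFC 0.62, adjusted p = 0.826) and *Rpn2* (LFC 0.61, adjusted p = 0.645) were also above the fed range in every starved library. They were the only 2 of 37 tested proteasome genes with such separation, beside 6.17% of all genes, so the count says little about them. The 37 genes had a median LFC of -0.05.

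The *GstD* genes, a cluster of glutathione S-transferases that conjugate xenobiotics, had lower values. All 10 tested members had LFCs below 0 (median -1.25), 7 had unadjusted p below 0.05 and none was called, against 58.9% of all genes with an LFC below 0 and 2.92% lower at that p. Without fed AFC replicate 1, 3 of the 10 had unadjusted p below 0.05, against 4.15% of all genes. They were picked, with values seen, from 33 tested glutathione S-transferases, whose median LFC was -0.23 with 9 above 0. The 10 genes gave sums of 3566, 3005 and 5786 CPM in starved AFCs and 7161, 5629 and 7294 CPM in fed AFCs. *GstD2* was the only member with separate groups, at 358, 324 and 471 CPM in starved AFCs and 948, 946 and 798 CPM in fed AFCs (LFC -1.22, SE 0.30, adjusted p = 0.246, edgeR).

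Of 25 tested genes for ecdysone and juvenile hormone, 21 had LFCs below 0 (median -0.51), 5 had separate groups and none was called, against 58.9% of all genes with an LFC below 0 and 5.91% with starved values below all fed values. Without fed AFC replicate 1, 15 of the 25 had LFCs below 0, against 47.1% of all genes, and the median was -0.07. *sad*, a cytochrome P450 of ecdysone synthesis, was read at 12.05, 9.90 and 6.14 CPM in starved AFCs and 20.1, 20.9 and 31.9 CPM in fed AFCs (LFC -1.38, SE 0.36, adjusted p = 0.333, edgeR). Of 70 tested respiratory chain genes, 60 had LFCs below 0 and 18 had starved values below all fed values, with a median of -0.30 and none called, beside the same shares of all genes. Without fed AFC replicate 1, 58 had LFCs below 0, against 47.1% of all genes, and 35 had starved values below the other fed values, against 16.1%.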
